A study of Homo sapiens with 14 samples.

Results

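The nuclear-encoded subunits of the respiratory chain were examined in CWR22RV1 prostate cancer cells treated with inhibitors of glycosylation. Members were all protein-coding genes whose symbols mark them as a subunit of complex I (NDUFA, NDUFB, NDUFC, NDUFS and NDUFV), complex II (SDHA to SDHD), complex III (UQCR and CYC1), complex IV (COX4 to COX8) or the ATP synthase, here called complex V (ATP5). A mean of 10 or more counts in the DMSO libraries was required. Of the 27819 genes listed in all 4 count tables, 91 were protein-coding candidates and 80 were members, with 35 in complex I, 4 in complex II, 10 in complex III, 13 in complex IV and 18 in complex V. NDUFA4 and NDUFA4L2 were counted with complex IV, because the NDUFA4 protein is a subunit of cytochrome c oxidase. Another 15 symbols were left out as 8 assembly factors, 4 antisense or divergent transcripts and 3 pseudogenes. ATP5F1E was the member nearest to the minimum, with a mean of 128 DMSO counts, and COX6B2 the candidate just outside it, with a mean of 5.

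CWR22RV1 is a human prostate carcinoma cell line that grows without androgen. Cultures received an inhibitor or the solvent DMSO for 72 h. Fucotrim I was given at 30 μM in 3 libraries and Fucotrim II at 60 μM in 2, SGN-2FF was given at 100 μM in 3 libraries and P-SiaFNEtoc at 2 μM in 3, and DMSO alone in 3. The study describes the Fucotrims as aimed at the synthesis of the fucose donor, and as also lowering GDP-mannose. SGN-2FF is a fluorinated fucose analogue. Its derivatives are described as giving rise to a competitive inhibitor of fucosyltransferases that also halts donor synthesis by feedback. P-SiaFNEtoc blocks sialyltransferases. The doses of the Fucotrims differed, all cells came from a single line, and the same 3 DMSO libraries served all 4 inhibitor comparisons.

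The respiratory chain passes electrons from NADH and succinate to oxygen through complexes I to IV and pumps protons, and complex V uses the proton gradient to make ATP. Each complex except complex II is built from subunits of 2 genomes, and the larger part of the subunits is encoded in the nucleus and imported. Complex II, succinate dehydrogenase, is encoded wholly in the nucleus and also catalyses a step of the tricarboxylic acid (TCA) cycle.

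Total counts ran from 12553094 to 19981453 per library. The luminal keratins KRT8 and KRT18 were detected in every library, while KRT5 and KRT14 of basal cells, PTPRC of leukocytes and PECAM1 of endothelium had at most 5 counts. KRT8 had 456 to 500.1 CPM (normalised read counts, scaled to library size) with DMSO, 783 to 827 with Fucotrim I, 619 and 796 with Fucotrim II, 624 to 667 with SGN-2FF and 614 to 645 with P-SiaFNEtoc. KRT18 had 389 to 418 CPM with DMSO and 437 to 642 CPM in the treated libraries. Among markers of other cells only COL1A1 passed 5 counts, at 15.9 to 29.2 CPM. The part of these shifts in the results was not tested. Transcripts of the mitochondrial genome took 5.32% to 6.27% of the counts with DMSO and up to 15.1% in Fucotrim II replicate 1, which also had the lowest member share, 1.30%. CPM values were scaled by the trimmed mean of M values (TMM) over all 14 libraries. Each fold change came from the edgeR quasi-likelihood fit of its own pair of groups, and a gene was called differentially expressed at an adjusted P value under 0.05 over all genes tested. The P values measure the spread between biological repeats of a single cell line.

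The promoters of members that carry the main results are shown first, so that the letters can be set beside the changes that follow. Each runs from 250 bases before to 30 bases after an annotated start site, in the RefSeq windows of GRCh38.p14. Capitals mark any of 6 short words on either strand: the NRF1 palindrome, CGGAAG (ETS family, which includes GABPA), AAGATGG (YY1), AAGGTCA (oestrogen-related receptors), and ACGTG and GCGTG (cores of hypoxia response elements). NDUFA4L2 is shown as the member that rose with all 4 inhibitors by the largest factor, at chr12:57240733-57241012 on the minus strand.
NDUFA4L2: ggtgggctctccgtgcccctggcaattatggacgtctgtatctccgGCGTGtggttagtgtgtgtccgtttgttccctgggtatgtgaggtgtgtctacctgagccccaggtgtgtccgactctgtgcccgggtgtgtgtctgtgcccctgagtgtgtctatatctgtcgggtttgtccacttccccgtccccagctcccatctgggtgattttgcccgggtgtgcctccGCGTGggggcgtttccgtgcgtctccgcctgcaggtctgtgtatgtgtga
The complex II promoters are shown because the 4 subunits moved together with Fucotrim II. They lie at chr5:218070-218349 (SDHA, plus strand), chr1:17054003-17054282 (SDHB, minus strand) and chr11:112086623-112086902 (SDHD, plus strand).
SDHA: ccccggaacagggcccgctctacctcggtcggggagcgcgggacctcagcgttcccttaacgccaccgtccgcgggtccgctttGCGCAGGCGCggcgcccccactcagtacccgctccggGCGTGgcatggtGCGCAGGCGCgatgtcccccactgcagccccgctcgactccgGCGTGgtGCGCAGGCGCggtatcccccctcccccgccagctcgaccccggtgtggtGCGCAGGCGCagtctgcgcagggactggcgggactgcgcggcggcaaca
SDHB: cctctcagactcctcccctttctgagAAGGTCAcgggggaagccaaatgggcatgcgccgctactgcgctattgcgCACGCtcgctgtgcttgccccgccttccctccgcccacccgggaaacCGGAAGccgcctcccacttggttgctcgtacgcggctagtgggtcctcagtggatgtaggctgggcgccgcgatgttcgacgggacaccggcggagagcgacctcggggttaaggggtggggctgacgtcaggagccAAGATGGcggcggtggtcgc
SDHD: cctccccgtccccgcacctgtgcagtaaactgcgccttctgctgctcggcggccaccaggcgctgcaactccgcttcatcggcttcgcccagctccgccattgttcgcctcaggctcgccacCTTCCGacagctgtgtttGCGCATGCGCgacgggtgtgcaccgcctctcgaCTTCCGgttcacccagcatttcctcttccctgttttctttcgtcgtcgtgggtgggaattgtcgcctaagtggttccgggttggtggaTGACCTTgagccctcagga
ATP5MC1 and ATP5MC2 encode the same mature c subunit of the ATP synthase from separate genes, at chr17:48892537-48892816 (plus strand) and chr12:53676054-53676333 (minus strand).
ATP5MC1: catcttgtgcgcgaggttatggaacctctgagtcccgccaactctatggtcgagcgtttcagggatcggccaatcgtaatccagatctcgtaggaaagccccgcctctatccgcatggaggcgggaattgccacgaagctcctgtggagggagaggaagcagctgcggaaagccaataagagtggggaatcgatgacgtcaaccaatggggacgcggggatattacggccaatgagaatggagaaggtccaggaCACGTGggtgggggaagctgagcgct
ATP5MC2: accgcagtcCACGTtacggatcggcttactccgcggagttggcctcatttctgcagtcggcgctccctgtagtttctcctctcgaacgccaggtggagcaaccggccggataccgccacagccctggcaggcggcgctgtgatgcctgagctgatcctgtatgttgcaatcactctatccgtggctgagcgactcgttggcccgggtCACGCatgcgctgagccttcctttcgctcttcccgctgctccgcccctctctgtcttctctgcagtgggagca

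The words were counted in windows from 250 bases before to 50 bases after any annotated start site of a gene. Windows were found for 66 of the 80 members. The NRF1 word was present for 15 of these 66 (22.7%), against 6.98% of the 27305 genes with a window. SDHA held it 4 times, each time as GCGCAGGCGC, and SDHD once, as GCGCATGCGC. CGGAAG was present for 27 members (40.9%, against 22.6% of all genes), AAGATGG for 16 (24.2%, against 7.11%) and AAGGTCA for 11 (16.7%, against 4.80%). ACGTG was present for 17 members (25.8%, against 24.9%) and GCGTG for 35 (53.0%, against 40.6%), among them NDUFA4L2. These are matches of letters, and no binding was measured.

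Most called subunit transcripts changed by less than 0.5 on the log2 scale, in both directions with the Fucotrims and upward with SGN-2FF and P-SiaFNEtoc. With Fucotrim I, 31 of the 80 members were higher than with DMSO and 8 were lower, and over all 14188 genes tested 43.8% were called, 21.6% higher and 22.1% lower. With Fucotrim II, 26 members were higher and 19 lower, and of 14617 genes 51.4% were called, 25.6% higher and 25.7% lower. The background was 20.6% for SGN-2FF, where 18 members were higher, against 11.5% of all genes, and 0 were lower, against 9.08%. It was 16.3% for P-SiaFNEtoc, where 5 members were higher, against 9.02%, and 0 were lower, against 7.33%. In bulk samples fewer cells of a type and less RNA per cell cannot be told apart. At an unadjusted P value under 0.05, edgeR gave 33 higher and 0 lower members with SGN-2FF, and 14 and 1 with P-SiaFNEtoc. The share of all genes at that threshold was not taken. DESeq2 and limma-voom called 0 lower with either inhibitor. The median log2 fold change of the members was 0.08 with Fucotrim I, 0.07 with Fucotrim II, 0.07 with SGN-2FF and 0.03 with P-SiaFNEtoc, against 0.00, 0.01, 0.00 and 0.00 over all genes.

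Separation of the libraries gave a like picture. Every Fucotrim I library lay above every DMSO library for 33 members and below for 18, and over all genes the groups did not overlap for 52.6%, 25.2% above and 27.4% below. For Fucotrim II 32 members lay above and 27 below, with 67.6% of all genes separated, 33.8% above and 33.8% below. For SGN-2FF 28 lay above and 2 below (36.4% of all genes, 16.9% and 19.5%), and for P-SiaFNEtoc 12 and 1 (33.7%, 16.6% and 17.2%).

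**Figure D1:**
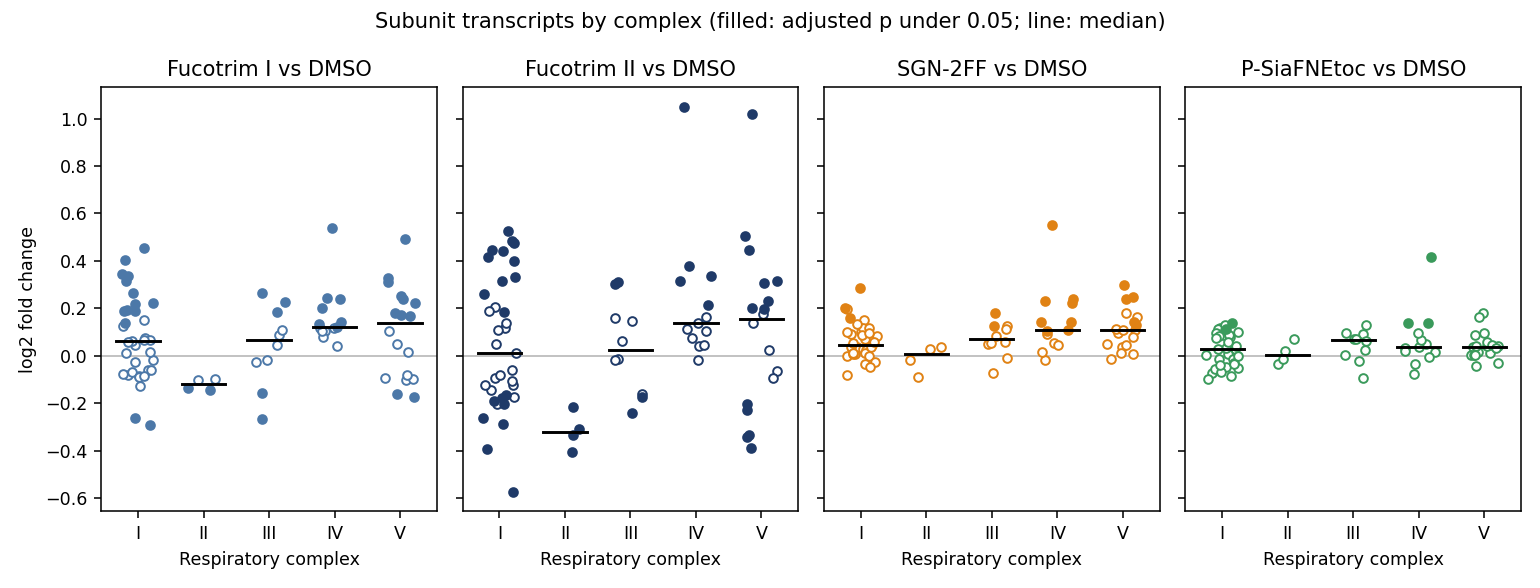
log2 fold change (vertical axis) of each of the 80 subunit transcripts against DMSO, by respiratory complex (horizontal axis), with a panel for each inhibitor. Filled points passed an adjusted P value of 0.05 and lines are medians. The 4 complex II points lie below 0 with both Fucotrims, all 13 complex IV points lie above 0 with Fucotrim I, and NDUFA4L2 is the highest complex IV point in each panel.

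Over the 4 inhibitors, 59 members were called at least once and 21 never. No member was called higher with one inhibitor and lower with another. NDUFA4L2, NDUFA13 and COX5B were called higher with all 4. Between the Fucotrims, 23 members were called higher with both and 6 lower with both, 8 were higher with Fucotrim I alone, 3 higher with Fucotrim II alone, 2 lower with Fucotrim I alone and 13 lower with Fucotrim II alone. Both comparisons used the same DMSO libraries. The counts over several inhibitors were not taken over all genes, so they describe the members and are not read as a trait of them.

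The changes varied with the base composition of the transcripts. Across the 80 members, the log2 fold change with Fucotrim II correlated with the GC content of the canonical transcript at Pearson r = 0.48 and with log2 transcript length at r = -0.33, and across the 14278 tested genes with a value these were 0.46 and -0.27. With Fucotrim I, r with GC content was 0.43 over members and 0.41 over 13875 genes. It was 0.31 and 0.21 with SGN-2FF, and 0.63 and 0.30 with P-SiaFNEtoc. Genes are not independent replicates, and the points share their libraries, so these are descriptions. The 26 members higher with Fucotrim II had a median GC content of 53.2% and a median length of 641 bases, and the 19 lower members 43.5% and 1759 bases. Of the 9 members on chromosome 19, 8 were higher with Fucotrim I and 7 with Fucotrim II, and UQCRFS1 was lower with Fucotrim II. Over all genes tested 21.6% and 25.6% were higher. The share among all genes of chromosome 19 was not taken, so this is not read as a trait of the members.

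The fit was therefore repeated with an offset for GC content in each library, an alternative added after the data were seen. With this offset 37 members were higher and 12 lower with Fucotrim I (background 19% and 20.3%), and 26 and 15 with Fucotrim II (22.5% and 23.4%). With SGN-2FF 28 were higher and 1 lower (12.1% and 11.3%), and with P-SiaFNEtoc 4 and 0 (6.83% and 4.83%). With Fucotrim I, 22 of the 31 higher and 4 of the 8 lower members were called the same way in both fits. With Fucotrim II these numbers were 18 of 26 and 8 of 19. NDUFS7, of the quinone-reducing arm of complex I, and ATP5F1D, of the central stalk of complex V, were called higher with Fucotrim I in the first fit and lower in the second. After the offset the correlation with GC content over all genes was 0.02 with Fucotrim I and 0.01 with Fucotrim II. For the members it was -0.34 and -0.30, and with SGN-2FF and P-SiaFNEtoc -0.17 and -0.22. The offset thus removed the trend over all genes and reversed it among the members. Calls of GC-rich members that ended or turned with the offset are to be read with this limit, and the cause was not tested.

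**Figure D2:**
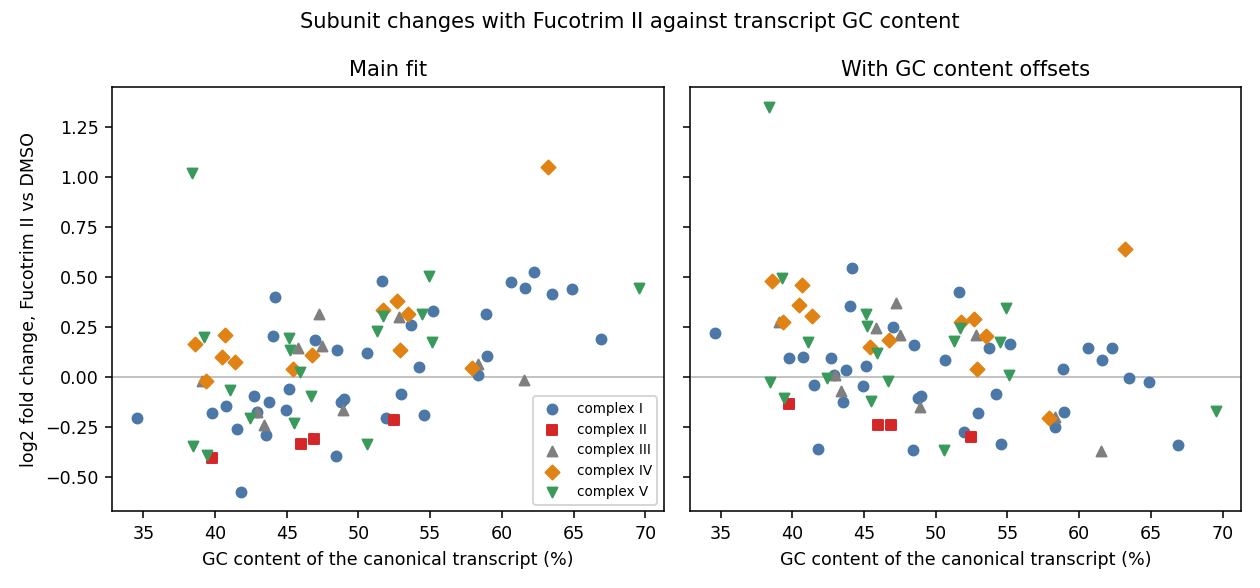
log2 fold change with Fucotrim II against DMSO (vertical axis) of the 80 members by GC content of the canonical transcript in % (horizontal axis), in the first fit (left) and with GC content offsets (right); shapes and colours mark the complex. The upward trend on the left, r = 0.48, is reversed on the right, r = -0.30, while the 4 complex II points stay below 0 in both.

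NDUFA4L2 showed the largest rise of the called members in each of the 4 comparisons with DMSO. It is a paralogue of NDUFA4 that is known as a target of the hypoxia-inducible factor, and the gene lies at chr12:57234903-57240715 on the minus strand. Its level was 16.9, 16.2 and 15.7 CPM with DMSO. It was 25.8, 22.3 and 22.7 with Fucotrim I, 28.6 and 39.1 with Fucotrim II, 25.1, 22.9 and 23.1 with SGN-2FF, and 21.8, 21.3 and 21.99 with P-SiaFNEtoc. Every treated library lay above every DMSO library. The log2 fold changes were 0.54 ± 0.09 (SE; adjusted P = 5.18e-05, edgeR), 1.05 ± 0.13 (adjusted P = 0.00015), 0.55 ± 0.08 (adjusted P = 6.72e-06) and 0.42 ± 0.07 (adjusted P = 0.000231) for the 4 inhibitors in that order. With GC content offsets they were 0.29, 0.64, 0.46 and 0.31, with adjusted P values of at most 0.00672.

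NDUFA4, its abundant paralogue, had 288, 317 and 316 CPM with DMSO and 278 to 354 CPM in the treated libraries. Its groups overlapped in each comparison with DMSO, and its log2 fold changes in the first fit ran from -0.02 to 0.10 with no call. GC content offsets moved NDUFA4 to 0.27 for Fucotrim I (adjusted P = 0.0529), close to the 0.29 of NDUFA4L2. For Fucotrim II it then stood at 0.28 (adjusted P = 0.0758), against 0.64 for NDUFA4L2. The SGN-2FF value was 0.15 (adjusted P = 0.066), against 0.46, and that of P-SiaFNEtoc 0.08 (adjusted P = 0.591), against 0.31. Other alternatives called NDUFA4 higher 2 times for Fucotrim I and 1 time for SGN-2FF, and lower 1 time for Fucotrim II. Over all alternatives its log2 fold change for Fucotrim II ran from -0.16 to 0.28. NDUFA4L2 was also the single member called between the Fucotrims, whose doses differed. Its log2 fold change was 0.52 ± 0.13 for Fucotrim II against Fucotrim I (adjusted P = 0.0271), with 9.5% of 14378 genes called, 6.04% higher and 3.46% lower. The Fucotrim libraries did not overlap for 9 members that were higher with Fucotrim II and 21 that were lower (42.2% of all genes, 21.2% and 21%). Over the alternatives its adjusted P value ran up to 0.185, and the call was lost with a replicate block by title, without Fucotrim I replicate 2, without Fucotrim I replicate 3 and without Fucotrim II replicate 2. The smallest P values of the other complexes belonged to NDUFS1 (-0.27 ± 0.08, adjusted P = 0.0505), SDHD (-0.26 ± 0.08, adjusted P = 0.0665), UQCRFS1 (-0.21 ± 0.08, adjusted P = 0.13) and ATP5MC2 (0.27 ± 0.09, adjusted P = 0.0758). The other 79 members were not called, and at an unadjusted P value under 0.05 the 80 members counted 6 higher, NDUFA4L2 included, and 10 lower. Shares of all genes at the unadjusted threshold were not taken. DESeq2 called 1 higher and 1 lower, and limma-voom 1 higher and 0 lower.

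**Figure D3:**
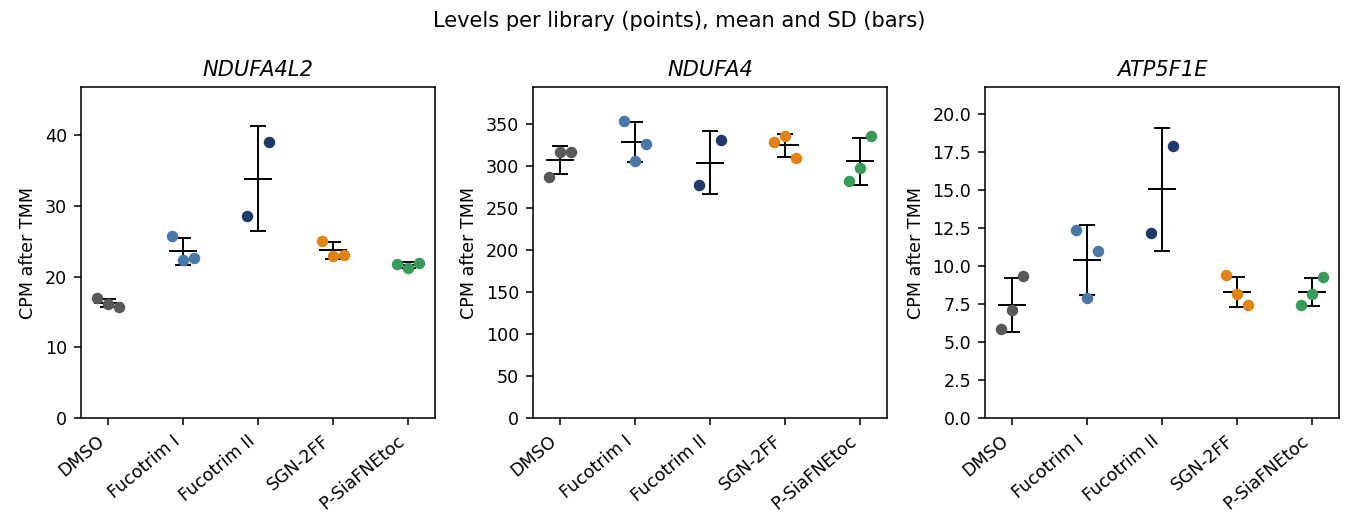
CPM after TMM (vertical axis, from 0) of NDUFA4L2, NDUFA4 and ATP5F1E in each library (points) by treatment (horizontal axis), with the mean and SD of each group as bars. The NDUFA4L2 treated libraries, 21.3 to 39.1 CPM, all lie above the DMSO libraries, 15.7 to 16.9 CPM, while the NDUFA4 groups overlap.

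All 4 subunits of complex II fell with Fucotrim II, where 25.7% of all genes were lower. SDHA, the flavoprotein that oxidises succinate, had 243, 232 and 223 CPM with DMSO and 185 and 217 with Fucotrim II. SDHB, which carries the iron-sulphur clusters, had 146, 145 and 137 CPM with DMSO and 109 and 118 with Fucotrim II. The membrane anchor SDHC went from 89.5, 101 and 94.8 CPM to 73.3 and 80.9. The groups did not overlap for any of these genes. SDHD, the other anchor, had 105, 109 and 104 CPM with DMSO, 95.1, 99.8 and 93.2 with Fucotrim I, and 83.1 and 77.2 with Fucotrim II, so that the 3 groups were fully separated. The log2 fold changes with Fucotrim II were -0.22 ± 0.08 for SDHA (adjusted P = 0.041), -0.33 ± 0.07 for SDHB (adjusted P = 0.00246), -0.31 ± 0.08 for SDHC (adjusted P = 0.00805) and -0.41 ± 0.07 for SDHD (adjusted P = 0.00088), by edgeR. The SDHA call was lost in 10 of 16 alternatives, among them leaving out any 1 DMSO library. With GC content offsets SDHA, SDHB and SDHC were called lower, at -0.30, -0.24 and -0.24, and SDHD was not, at -0.14 (adjusted P = 0.0582).

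With Fucotrim I, SDHB was lower by a log2 fold change of -0.15 ± 0.05 (adjusted P = 0.0271) and SDHD by -0.14 ± 0.05 (adjusted P = 0.0443), and SDHA and SDHC, at -0.10 each, were not called. Both calls ended with GC content offsets, that of SDHB also in 5 and that of SDHD in 9 of the other 15 alternatives, while SDHA was called lower with the offsets, at -0.15 (adjusted P = 0.00534). With SGN-2FF and P-SiaFNEtoc the 4 genes ranged from -0.09 to 0.07 with no call and adjusted P values of at least 0.228. SDHC shares 33.3% and SDHD 16.5% of its 100-base windows with other places in the primary genome, so their counts could include reads from copies. SDHA shares 2.35% and SDHB none, and SDHA overlaps exons of other genes on its own strand over 21.7% of its exon length.

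**Figure D4:**
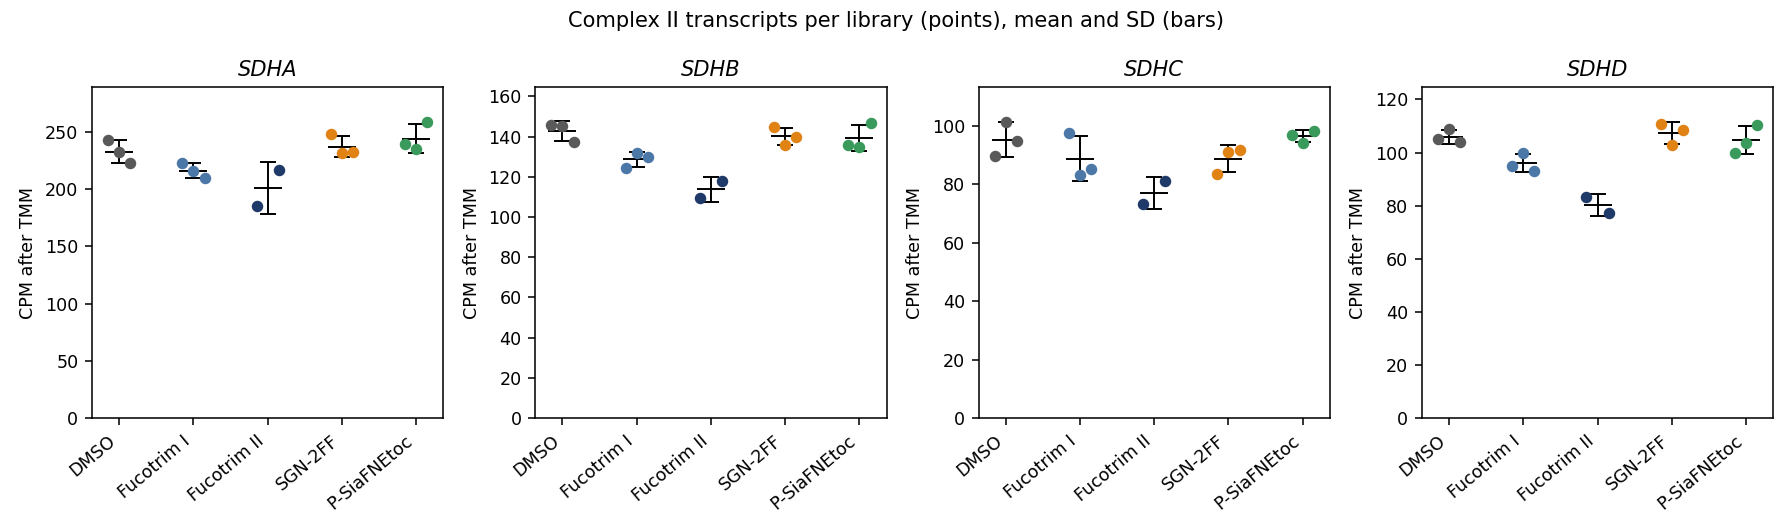
CPM after TMM (vertical axis, from 0) of the 4 complex II genes in each library (points) by treatment (horizontal axis), with mean and SD as bars. For each gene both Fucotrim II libraries lie below the 3 DMSO libraries; SDHD has 77.2 and 83.1 CPM against 104 to 109.

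Of the 35 members of complex I, 12 were higher and 2 lower with Fucotrim I (34.3% and 5.71%, against 21.6% and 22.1% of all genes). With Fucotrim II 11 were higher and 8 lower (31.4% and 22.9%), close to the 25.6% and 25.7% of all genes. Members of its catalytic core were called in opposite directions. NDUFV1 (chr11:67605653-67612554, plus strand) encodes the subunit that binds NADH and flavin, and NDUFS1 (chr2:206114817-206159509, minus strand) the large iron-sulphur subunit beside it. NDUFV1 had 233, 226 and 241 CPM with DMSO, 274, 253 and 288 with Fucotrim I, and 299.6 and 351 with Fucotrim II. NDUFS1 had 194, 201 and 189 CPM with DMSO, 157, 166 and 153 with Fucotrim I, and 135 and 128 with Fucotrim II. In neither gene did a Fucotrim group overlap with DMSO. The log2 fold changes of NDUFV1 were 0.22 ± 0.05 (adjusted P = 0.00197) and 0.47 ± 0.08 (adjusted P = 0.000709), and those of NDUFS1 -0.29 ± 0.05 (adjusted P = 0.000112) and -0.57 ± 0.06 (adjusted P = 0.000108). With GC content offsets NDUFS1 stayed lower, at -0.17 and -0.36, and the calls of NDUFV1 ended, at 0.02 (adjusted P = 0.659) and 0.14 (adjusted P = 0.0513).

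Among the accessory subunits of complex I, NDUFAB1, the mitochondrial acyl carrier protein, was lower with both Fucotrims, by -0.26 ± 0.05 (adjusted P = 0.00058) and -0.39 ± 0.06 (adjusted P = 0.00085). NDUFA13, also called GRIM-19, had 142, 140 and 142 CPM with DMSO and 151 to 210 CPM in all treated libraries. It was higher with each inhibitor, by log2 fold changes of 0.31, 0.45, 0.16 and 0.14, and all 4 calls ended with GC content offsets, where it stood at 0.10, 0.09, 0.08 and 0.04 with adjusted P values from 0.0529 to 0.521. NDUFA2 was the complex I member with the smallest P value for Fucotrim I, at 0.40 ± 0.06 (adjusted P = 3.8e-05), and NDUFA7 that for SGN-2FF, at 0.29 ± 0.05 (adjusted P = 0.00016). NDUFC2 rose with Fucotrim I from 21.6, 22.5 and 18.7 CPM to 27.6, 29.99 and 28.5, a log2 fold change of 0.46 ± 0.08 (adjusted P = 0.00018), and it shares 18.6% of its exon length with a read-through gene. NDUFB8, an accessory subunit of the membrane arm, was lower with Fucotrim II at -0.19 ± 0.06 (adjusted P = 0.0308), a call that ended when any 1 DMSO library was left out and that stood at -0.34 with GC content offsets (adjusted P = 0.000397). With SGN-2FF 3 complex I members were higher and 0 lower (8.57% and 0%, against 11.5% and 9.08% of all genes). With P-SiaFNEtoc 2 were higher, NDUFA13 and NDUFV1, and 0 lower (5.71% and 0%, against 9.02% and 7.33%). The NDUFV1 call with P-SiaFNEtoc, at 0.11 (adjusted P = 0.0455), was lost in 12 of 16 alternatives.

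Of the 10 members of complex III, 3 were higher and 2 lower with Fucotrim I (30% and 20%, against 21.6% and 22.1% of all genes). With Fucotrim II 2 were higher and 2 lower (20% and 20%, against 25.6% and 25.7%). These shares of 10 members lay near those of all genes. With SGN-2FF 2 and 0 were called (20% and 0%, against 11.5% and 9.08%), and with P-SiaFNEtoc 0 and 0 (against 9.02% and 7.33%). The catalytic CYC1 (cytochrome c1) and UQCRC1 (core protein 1) were not called with any inhibitor, with log2 fold changes from -0.01 to 0.09 and from 0.06 to 0.10. The Rieske iron-sulphur protein UQCRFS1 was lower with Fucotrim II by -0.24 ± 0.07 (adjusted P = 0.0127) and the core protein UQCRC2 by -0.17 ± 0.06 (adjusted P = 0.0335). Both calls ended with GC content offsets, where UQCRC2 stood at 0.0081, and that of UQCRC2 also without any 1 DMSO library and that of UQCRFS1 without DMSO replicate 1 or DMSO replicate 2. With the same offsets CYC1 was at -0.17 with Fucotrim I (adjusted P = 0.00193) and -0.37 with Fucotrim II (adjusted P = 0.00036), and UQCRC1 at -0.20 with Fucotrim II (adjusted P = 0.0229). The small subunit UQCRQ, known as a ubiquinone-binding protein, had 124, 127 and 129 CPM with DMSO, 154, 148 and 153 with Fucotrim I, and 147 and 169 with Fucotrim II. It rose by 0.26 ± 0.05 (adjusted P = 0.00026) and 0.31 ± 0.07 (adjusted P = 0.005). UQCRH, the hinge protein, was the complex III member with the smallest P value for SGN-2FF, at 0.18 ± 0.04 (adjusted P = 0.00085), and shares 18% of its windows with other places. Its intronless relative UQCRHL was lower with Fucotrim I at -0.26 ± 0.08 (adjusted P = 0.0156), a call lost without DMSO replicate 1, Fucotrim I replicate 1 or Fucotrim I replicate 3 (adjusted P up to 0.0991), and reads of the pair may be split between them. UQCR11 stood at 0.13 ± 0.05 with P-SiaFNEtoc (adjusted P = 0.066).

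Of the 13 members of complex IV, 7 were higher with Fucotrim I (53.8%, against 21.6% of all genes), 5 with Fucotrim II (38.5%, against 25.6%), 8 with SGN-2FF (61.5%, against 11.5%) and 3 with P-SiaFNEtoc (23.1%, against 9.02%). None was called lower, against 22.1%, 25.7%, 9.08% and 7.33% of all genes, so that with SGN-2FF and P-SiaFNEtoc the absence of lower calls among 13 members is near the background. With GC content offsets 19%, 22.5%, 12.1% and 6.83% of all genes were higher, and 20.3%, 23.4%, 11.3% and 4.83% lower. In that fit 10, 8, 7 and 2 complex IV members were higher and 0, 1, 0 and 0 lower. The 1 lower member was COX8A, at -0.20 with Fucotrim II (adjusted P = 0.0192), while it stood at 0.05 in the first fit (adjusted P = 0.654). COX4I1, the regulatory subunit that binds ATP, had 419, 393 and 406 CPM with DMSO, 469, 446 and 480 with Fucotrim I, 479 and 582 with Fucotrim II, 459, 440 and 434 with SGN-2FF, and 403, 410 and 445 with P-SiaFNEtoc. It rose by 0.20 ± 0.05, 0.38 ± 0.08 and 0.14 ± 0.04 with the first 3 inhibitors (adjusted P = 0.0019, 0.0039 and 0.0063) and overlapped with DMSO for P-SiaFNEtoc. The COX4I1 call with SGN-2FF was lost without SGN-2FF replicate 1 and in a single fit of all 14 libraries (adjusted P up to 0.174). COX5B, which binds zinc, had 217, 206 and 228 CPM with DMSO and 229 to 303 CPM in all 11 treated libraries. Its log2 fold changes were 0.24, 0.34, 0.24 and 0.14 (adjusted P = 0.00415, 0.00921, 0.00313 and 0.0292), and the call with P-SiaFNEtoc was lost in 7 of 16 alternatives. The COX5B call with Fucotrim II was lost without DMSO replicate 2.

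COX5A, which pairs with COX4 in the assembled enzyme, was higher with Fucotrim I at 0.13 ± 0.05 (adjusted P = 0.0312), a call lost in 8 of 16 alternatives and held with GC content offsets, at 0.20. COX8A, a small membrane subunit, was higher with Fucotrim I, SGN-2FF and P-SiaFNEtoc at 0.14 each, and these calls ended with GC content offsets. COX6C, COX7A2 and COX7A2L, the last known for its part in supercomplexes, were not called with any inhibitor, with log2 fold changes from -0.08 to 0.16. With GC content offsets COX6C and COX7A2L were called higher with both Fucotrims, COX6C at 0.26 and 0.36 and COX7A2L at 0.21 and 0.48, and COX7A2 with Fucotrim I, at 0.17. The tissue-restricted forms were nearly silent: COX4I2 had 0 counts in every library, which allows at most 3 counts per library, and COX7A1, the form of heart and muscle, had 0 to 9 counts.

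Of the 18 members of complex V, 9 were higher and 2 lower with Fucotrim I (50% and 11.1%, against 21.6% and 22.1% of all genes). With Fucotrim II 8 were higher and 5 lower (44.4% and 27.8%, against 25.6% and 25.7%). All 3 genes of the c subunit encode the same mature protein, which forms the ring that turns in the membrane. ATP5MC2 rose from 317, 331 and 317 CPM with DMSO to 389, 357 and 391 with Fucotrim I, 419 and 497 with Fucotrim II, and 346, 350 and 349 with SGN-2FF. ATP5MC1 had 139, 140 and 144 CPM with DMSO, 168, 148 and 177 with Fucotrim I, and 142 and 177 with Fucotrim II, where the groups overlapped. ATP5MC3 had 170, 161 and 170 CPM with DMSO, 168, 149 and 149 with Fucotrim I, and 124 and 140 with Fucotrim II. ATP5MC2 thus rose and ATP5MC3 fell with Fucotrim II, by 0.50 ± 0.08 (adjusted P = 0.000524) and -0.34 ± 0.07 (adjusted P = 0.00296). ATP5MC1 rose with Fucotrim I by 0.22 ± 0.06 (adjusted P = 0.00428) and stood at 0.18 ± 0.09 with Fucotrim II (adjusted P = 0.12). The SGN-2FF call of ATP5MC2 (0.13, adjusted P = 0.0104) was lost in 5 of 16 alternatives. The transcripts of ATP5MC1, ATP5MC2 and ATP5MC3 have GC contents of 55.1%, 54.9% and 38.5%. With GC content offsets ATP5MC2 stayed higher with Fucotrim II at 0.35 (adjusted P = 0.001), and ATP5MC3 stood at -0.02 (adjusted P = 0.868).

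**Figure D5:**
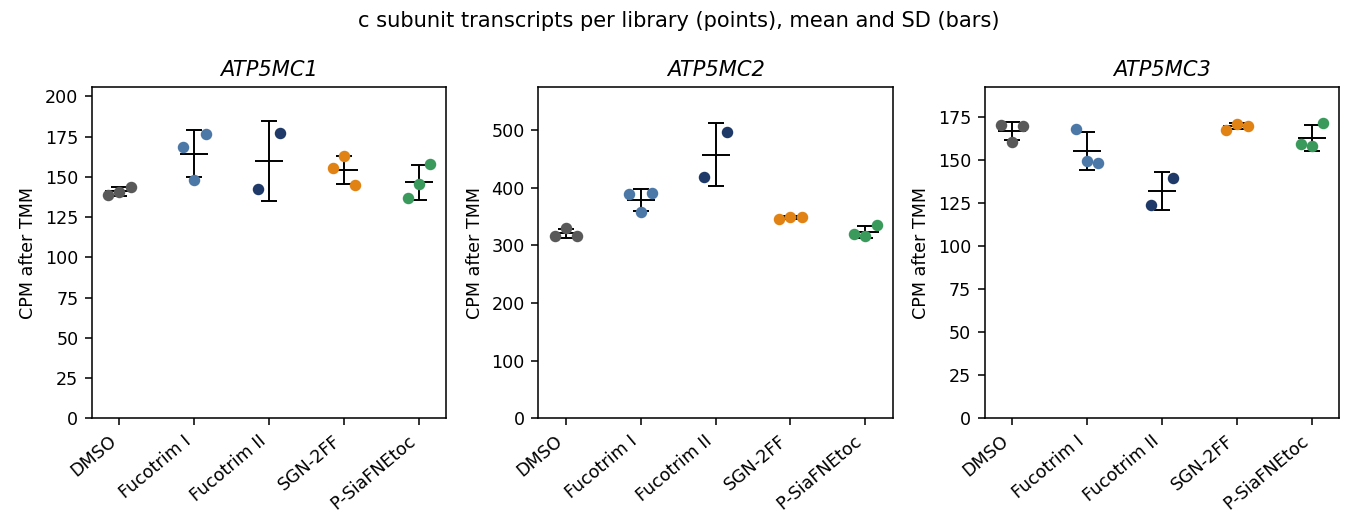
CPM after TMM (vertical axis, from 0) of the 3 genes of the c subunit in each library (points) by treatment (horizontal axis), with mean and SD as bars. With Fucotrim II, ATP5MC2 reaches 419 and 497 CPM against 317 to 331 with DMSO, while ATP5MC3 falls to 124 and 140 CPM against 161 to 170.

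The catalytic head of complex V contains ATP5F1A and ATP5F1B, the alpha and beta subunits. ATP5F1B had 2149, 2221 and 2177 CPM with DMSO, 1946, 1924 and 1977 with Fucotrim I, and 1622 and 1854 with Fucotrim II. It was lower by -0.16 ± 0.04 (adjusted P = 0.0064) and -0.33 ± 0.08 (adjusted P = 0.0056), and lower in both also with GC content offsets, at -0.17 and -0.37. ATP5F1A was lower with Fucotrim II by -0.23 ± 0.07 (adjusted P = 0.0206), a call that ended when any 1 DMSO library was left out and with GC content offsets. ATP5F1D, of the central stalk, was higher with both Fucotrims, at 0.25 ± 0.09 (adjusted P = 0.0371) and 0.44 ± 0.13 (adjusted P = 0.0151), and stood at -0.11 and -0.17 with GC content offsets. ATP5F1E, also of the central stalk, had 5.88, 7.11 and 9.34 CPM with DMSO and 12.2 and 17.9 with Fucotrim II, a rise of 1.02 ± 0.20 (adjusted P = 0.0025), and it overlaps an exon of TUBB1 on the opposite strand over 23.2% of its exon length. With Fucotrim I its groups overlapped, at 12.4, 7.90 and 10.97 CPM (log2 fold change 0.49 ± 0.18, adjusted P = 0.0371), and the call was lost in 6 of 16 alternatives.

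In the membrane part of complex V, 3 of 5 members were higher in each of the Fucotrim I, Fucotrim II and SGN-2FF comparisons (21.6%, 25.6% and 11.5% of all genes), and 0 were lower (22.1%, 25.7% and 9.08% of all genes). ATP5ME, the e subunit, had 107 CPM in each DMSO library, 128, 135 and 140 with Fucotrim I, 131 and 137 with Fucotrim II, and 129, 138 and 123 with SGN-2FF. It rose by 0.33 ± 0.05, 0.32 ± 0.06 and 0.30 ± 0.05 (adjusted P = 4.68e-05, 0.00195 and 3.1e-05). ATP5MF, the f subunit, rose by 0.31 ± 0.05, 0.30 ± 0.07 and 0.25 ± 0.04 (adjusted P = 3.5e-05, 0.0044 and 2.1e-05). In the peripheral stalk ATP5PB was lower with both Fucotrims, by -0.17 ± 0.05 (adjusted P = 0.0046) and -0.39 ± 0.06 (adjusted P = 0.0005), and both calls ended with GC content offsets, at -0.02 (adjusted P = 0.761) and -0.10 (adjusted P = 0.185). ATP5PD of the same stalk was higher with both, by 0.18 ± 0.06 (adjusted P = 0.0239) and 0.20 ± 0.07 (adjusted P = 0.044), and stayed higher with the offsets, at 0.25 and 0.31. ATP5IF1, which inhibits ATP hydrolysis by the enzyme, was higher by 0.17 ± 0.05 (adjusted P = 0.009) and 0.23 ± 0.07 (adjusted P = 0.0203), and the call with Fucotrim II was lost in 6 of 16 alternatives, among them leaving out any 1 DMSO library. With P-SiaFNEtoc no complex V member was called (16.3% of all genes were), and ATP5MK had the smallest P value there, at 0.10 ± 0.05 (adjusted P = 0.169).

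The summed members hid these shifts. They amounted to 14906 to 14953 CPM with DMSO, 14878 to 15577 with Fucotrim I, 14196 and 16092 with Fucotrim II, 15181 to 15929 with SGN-2FF, and 14911 to 16190 with P-SiaFNEtoc. Only the SGN-2FF libraries all lay above DMSO. The 13 mRNAs of the mitochondrial genome, which encode the partners of these subunits, had 3.44 to 4.07 CPM for each CPM of the members with DMSO, 5.02 to 8.65 with Fucotrim I, 7.25 and 11.7 with Fucotrim II, 4.56 to 4.99 with SGN-2FF and 3.48 to 3.95 with P-SiaFNEtoc. Their median log2 fold changes were 1.05, 1.43, 0.45 and 0.04, with 10, 13, 13 and 0 of 13 called higher and 0 called lower in the first fit. Over all genes 21.6%, 25.6%, 11.5% and 9.02% were called higher.

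Other genes of the pathway were read from lists. CYCS, which encodes the electron carrier cytochrome c, was lower with Fucotrim I, Fucotrim II and P-SiaFNEtoc, at -0.19 (adjusted P = 0.00518), -0.41 (adjusted P = 0.000623) and -0.12 (adjusted P = 0.0359), and stood at -0.10 with SGN-2FF (adjusted P = 0.0515). After the GC content offsets it was called lower with Fucotrim II alone, at -0.18, and stood at -0.06 with Fucotrim I and -0.05 with P-SiaFNEtoc. Of 61 assembly factors, 12 were higher and 7 lower with Fucotrim I (19.7% and 11.5%, against 21.6% and 22.1% of all genes), and 11 and 14 with Fucotrim II (18% and 23%, against 25.6% and 25.7%). With SGN-2FF 7 were higher and 1 lower (11.5% and 1.64%, against 11.5% and 9.08% of all genes). With P-SiaFNEtoc these numbers were 1 and 2 (1.64% and 3.28%, against 9.02% and 7.33%). The medians over the 4 inhibitors ran from -0.01 to 0.04. In this first fit the share of the 61 called higher exceeded that of all genes with neither Fucotrim. By complex the shares differed, with 33.3% of the 9 factors of complex III higher with each Fucotrim. Of the 19 factors of complex I, 26.3% were higher with Fucotrim I and 21.1% with Fucotrim II. With GC content offsets 16 were higher and 6 lower with Fucotrim I (19% and 20.3% of all genes), and 15 and 11 with Fucotrim II (22.5% and 23.4%). Both shares called higher were then above those of all genes. The 4 assembly factors of complex II were not called with any inhibitor in the first fit, and with the offsets 1 was lower with each inhibitor. Of 13 enzymes of the TCA cycle other than complex II, 5 were lower and 1 higher with Fucotrim I (38.5% lower, against 22.1% of all genes), and 11 lower and 1 higher with Fucotrim II (84.6% lower, against 25.7%), with a median of -0.32 there. SUCLA2, a subunit of succinyl-CoA ligase, was lower with Fucotrim II at -0.63 and citrate synthase CS at -0.36, and IDH3G, a subunit of isocitrate dehydrogenase, was the higher one at 0.65. With GC content offsets 7 TCA enzymes were lower and 1 higher with each Fucotrim.

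Of 8 transcription regulators tested, 4 were lower and 1 higher with Fucotrim I (50% and 12.5%, against 22.1% and 21.6% of all genes). With Fucotrim II 5 were lower and 1 higher (62.5% and 12.5%, against 25.7% and 25.6%). TFAM, which drives transcription of the mitochondrial genome, was lower by -0.37 with Fucotrim I (adjusted P = 0.000626) and -0.68 with Fucotrim II (adjusted P = 0.000418), and GABPA, an ETS factor, by -0.33 and -0.62 (adjusted P = 0.0011 and 0.000685). ESRRA, an oestrogen-related receptor, was higher with both, at 0.25 and 0.42 (adjusted P = 0.0107 and 0.00857), and with P-SiaFNEtoc at 0.18 (adjusted P = 0.0393). No regulator was called higher in these comparisons with GC content offsets, so all 3 ESRRA calls ended. With the offsets 3 and 5 were lower with the Fucotrims, where 20.3% and 23.4% of all genes were lower. NRF1 was not called, from -0.08 to 0.01. The coactivator PPARGC1A had 3 to 12 counts per library and was not tested, and PPARGC1B was lower with Fucotrim II alone, at -0.27 (adjusted P = 0.0375).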

How the data were processed

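RNA from CWR22RV1 cells was sequenced as 100-base single reads from poly(A)-selected stranded libraries. The authors trimmed reads with Cutadapt, checked them with FastQC, aligned the reads by HISAT2 to the hg38 build, and featureCounts gave counts per gene. The 4 deposited tables hold raw counts, 1 table for each inhibitor with the same DMSO counts. The annotation release, the strand setting and the treatment of reads that map to several places are not given in the sources used here. Doses are from the methods of the study, and groups from the labels. The tables were joined by Entrez identifier over 27819 shared genes.

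Each comparison was fitted by edgeR 4.0.16 (quasi-likelihood, robust, filterByExpr, TMM) in R 4.3.3 on the libraries of its 2 groups, and P values were adjusted by Benjamini and Hochberg over all genes tested. All 80 members passed the filter in every comparison. SE is the log2 fold change divided by the square root of its F. limma-voom (limma 3.58.1) and DESeq2 1.42.0 were alternatives. GC content offsets, added after seeing the data, were lowess smooths (span 0.3) of each library's log2 differences on transcript GC content. Fits were tested on simulated data. Gene positions, exon overlap, transcript length and GC content are from GENCODE v44 on hg38, and copies were searched as 100-base windows of each transcript. Promoter windows are from RefSeq on GRCh38.p14, matched by Entrez identifier, and protein sequences were not used here.

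The members, gene lists and searched words were chosen with earlier results of these data known. Named in each comparison were subunits set by function. Added were the 2 members with the largest rise and fall among called members with a mean of 50 counts and groups that did not overlap, and the member of each complex with the smallest P value. Of 11 candidates under 10 counts, NDUFA3 and NDUFA6 share 78.3% and 80.1% of their windows with alternate contigs of hg38. Results on some genes are not reported here.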

Additional observations from a re-analysis of the deposited data

Results flagged for a closer look

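NDUFA4L2 differed between the Fucotrims, with a log2 fold change of 0.52 for Fucotrim II against Fucotrim I by the test of the difference itself (adjusted P = 0.0271, edgeR). The doses differed.

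Some members had all libraries of one treatment below DMSO and all libraries of another above it, and these differences were not tested. For Fucotrim II less SGN-2FF, the difference of the log2 fold changes was -0.26 for NDUFB3 (-0.14 and 0.12), -0.30 for ATP5F1C (-0.20 and 0.10) and -0.17 for ATP5PO (-0.09 and 0.08). For Fucotrim I less SGN-2FF it was -0.19 for ATP5F1C (-0.09 and 0.10) and -0.16 for ATP5PO (-0.08 and 0.08). For Fucotrim II less P-SiaFNEtoc it was -0.23 for NDUFB4 (-0.12 and 0.11). Of the members named here, ATP5F1C was called against DMSO, lower with Fucotrim II. All these comparisons share the DMSO libraries.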

How the results depend on the processing

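The number of called members kept within a factor of 1.5 of the first fit for Fucotrim I (39) in every alternative but an adjusted P value under 0.01, which gave 24, and leaving out a library gave 27 to 45. For Fucotrim II (45) that threshold gave 28, and leaving out a library gave 28 to 62, with 28, 28 and 29 without DMSO replicate 1, 2 or 3. Without Fucotrim II replicate 1 the 62 were 42 higher and 20 lower. For SGN-2FF (18) the threshold gave 11, a single fit of all 14 libraries 7, GC content offsets 29, and leaving out a library 10 (without SGN-2FF replicate 2) to 27. For P-SiaFNEtoc (5) the threshold gave 1, DESeq2 3, the single fit 1, and leaving out a library 2 to 8, with 3 without DMSO replicate 1 or 2, 8 without P-SiaFNEtoc replicate 1, and 2 without its replicate 2 or 3. For Fucotrim II against Fucotrim I (1) the threshold gave 0, no filter 4, DESeq2 2, the single fit 19, GC content offsets 3, and leaving out a library 0 to 17, with 0 without Fucotrim I replicate 2 or 3, and 17 and 4 without Fucotrim II replicate 1 or 2. The causes were not tested.

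By the replicate numbers of the titles, no comparison had every pair of samples above 0.1 in the correlation of their deviations. The 3 Fucotrim I pairs with DMSO stood at 0.18, 0.19 and 0.03, so a pairing by title was not excluded. For Fucotrim II titles and library names give only 2 pairs each. Deviations of 2 libraries from their mean mirror each other, so the 2 correlations are not independent. Against DMSO these were -0.22 and -0.30 by title, and 0.3024 and 0.1003 by name. Against Fucotrim I they were -0.35 and -0.33 by title, and 0.33 and -0.06 by name. Pairing by name was also left undecided. A replicate block by title gave 52, 21, 15, 7 and 0 called members in the 5 comparisons in the order above. A block by the numbers in the library names of Fucotrim II, which differ from the titles, gave 38 against DMSO and 10 against Fucotrim I.

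Among named results called in the first fit or in the alternative, the direction turned in 5, all with GC content offsets, and the cause was not tested: SDHD (0.015) and CYC1 (-0.17) with Fucotrim I, and UQCRC1 (-0.20), UQCRC2 (0.0081) and COX8A (-0.20) with Fucotrim II. Named results near 0 that were called in neither fit also changed sign, with the offsets and in other alternatives. The median log2 fold change of the members with Fucotrim II, 0.07 in the first fit, was -0.03 without Fucotrim II replicate 2 and 0.17 without its replicate 1. Each of these fits kept 1 Fucotrim II library, so the sign of the median depended on the library kept. Most changes of single members were under 0.5 on the log2 scale, and with 2 Fucotrim II libraries their spread is poorly known.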
